A study of Mus musculus with 72 samples.

Results

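Tumours that had received bintrafusp alfa together with radiation (BA+RT, 9 mice) were compared with tumours that had received an isotype antibody alone (control, 9 mice). The libraries were taken by their treatment labels and by the group suffix of their column in the count table, which gave 36 libraries from 18 mice out of 72 libraries from 36 mice. All mice were female BALB/c animals aged 6 to 12 weeks. 4T1 cells, a BALB/c mammary carcinoma line, were injected into a thigh muscle on day -6, and the mice were treated on day 0 and killed on day 6. BA+RT mice received radiation and 492 µg of bintrafusp alfa (BA, labelled M7824). A further 2 groups of 9 serve here for direct comparison: BA mice received 492 µg of BA without radiation, and RT mice received radiation with the isotype antibody. Control mice received 400 µg of the isotype antibody. How large the radiation dose was is not stated in these sources. The model rests on 1 transplanted cell line in a muscle bed, although its label reads orthotopic tumour, and each tumour was read whole, with its stroma, vessels and infiltrating cells.

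BA joins an antibody against PD-L1, a ligand that restrains T cells through PD-1, to the outer domain of TGF-β receptor II, which captures TGF-β. TGF-β drives fibroblasts to make and remodel matrix and restrains cytotoxic lymphocytes. Radiation breaks DNA, and DNA that reaches the cytosol is sensed by cGAS and STING, which switch on type I interferon. Interferon in turn induces antiviral genes, chemokines and antigen presentation genes. The comparison asks what both treatments together changed in the tumour, and the 2 single treatments show where the combination stood apart from each.

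Both targeted amplicon panels were run on every tumour, and together they held 1224 genes. Library totals ran from 1756429 to 2178557 counts in BA+RT and from 1060824 to 1956764 counts in control tumours on panel 1. On panel 2 they ran from 591551 to 821436 counts in BA+RT and from 341400 to 841046 counts in control tumours. The BA+RT libraries were thus deeper on average. Levels are TMM-scaled CPM, counts relative to the library total of the panel, given as the lowest, median and highest of the 9 mice of a group, and they do not compare 1 gene with another. Differences are log2 fold changes from edgeR with their standard error (SE), BA+RT over the group it is set against. A gene was called when its adjusted p, over all 1038 genes tested, was below 0.05. The mice were separate animals, so the p-values measure the spread between mice. In whole tumours, fewer cells of a type and less RNA per cell cannot be told apart.

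A set of 4 tumours stood apart from their groups. BA+RT mouse 45 and control mouse 6 held the most skeletal muscle RNA of their groups. The 2 markers of skeletal muscle on the panels, Mb (myoglobin) and Myod1 (a muscle transcription factor), were detected in both groups. Their summed level had a lowest, median and highest value of 499.7, 1503 and 5680.4 CPM in BA+RT tumours, against 256, 429.6 and 4947 CPM in control tumours. BA+RT mouse 40 and control mouse 8 held high levels of genes that respond to interferon gamma. Cd274, which encodes PD-L1 and responds to interferon gamma, reached 465 CPM in BA+RT mouse 40, with 264 CPM in the next highest BA+RT tumour. In control mouse 8 it reached 912 CPM, with 259 CPM in the next highest control tumour. Results that rest on these mice are given with and without them.

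**Figure D1:**
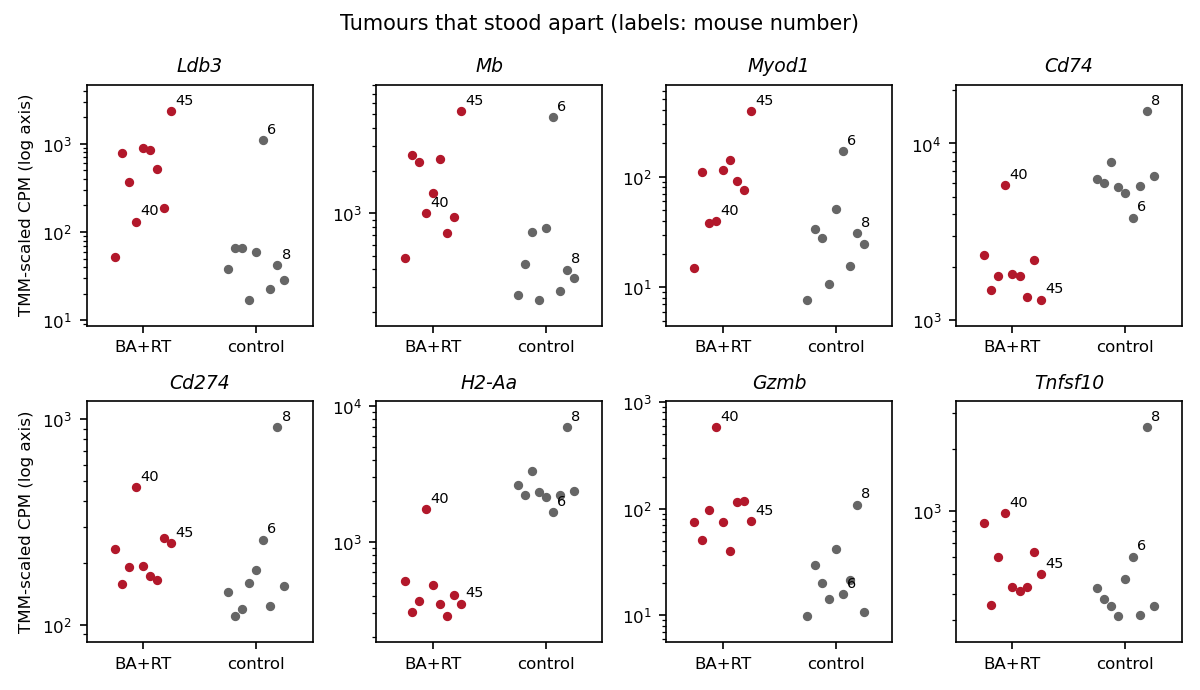
TMM-scaled CPM on a log axis in each BA+RT and control tumour (1 point per mouse), for 3 muscle-expressed genes and 5 genes of interferon and cytotoxic responses; mouse numbers mark the 4 tumours that stood apart. Mice 45 and 6 are highest for Ldb3, Mb and Myod1, and mice 40 and 8 are highest for Cd74, Cd274, H2-Aa, Gzmb and Tnfsf10.

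BA+RT and control tumours differed over much of the panels. Of 1038 genes tested, 494 were called (47.6%), with 243 higher (23.4%) and 251 lower (24.2%) in BA+RT. The median log2 fold change over all tested genes was 0.01. With scaling by the 9 reference genes of the panels in place of TMM, the split became 387 higher and 157 lower and the median of all genes 0.14, so small changes depend on the scaling. In 38 genes every BA+RT tumour lay above every control tumour, and in 37 every BA+RT tumour lay below. The direct comparisons called 112 genes against RT (10.8%), with 38 higher (3.66%) and 74 lower (7.13%), and 555 genes against BA (53.5%), with 281 higher (27.1%) and 274 lower (26.4%). With reference-gene scaling 19 genes were higher than RT, and the split against BA became 472 higher and 147 lower. The count higher than RT was 63 with DESeq2, 21 without RT mouse 23, and 66 without BA+RT mouse 45 and control mouse 6. Set against the same control mice, RT alone called 213 genes higher (20.5%) and 219 lower (21.1%), and BA alone 130 higher (12.5%) and 150 lower (14.5%).

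**Figure D2:**
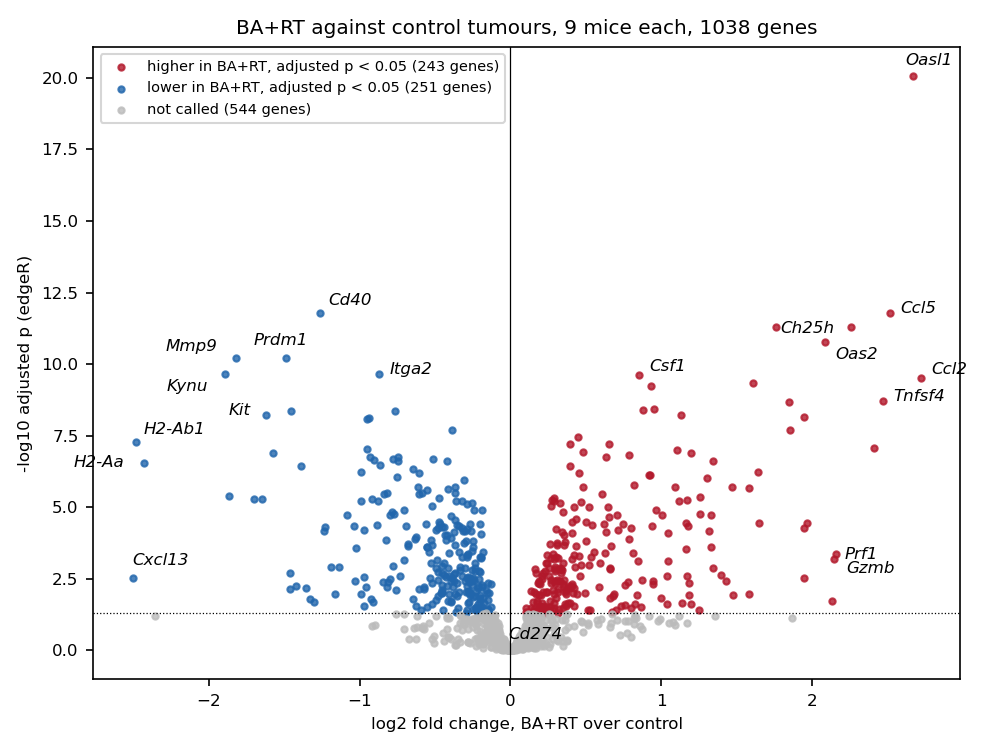
Log2 fold change of BA+RT over control on the x axis and -log10 adjusted p on the y axis for the 1038 tested genes, with 243 genes called higher in red, 251 called lower in blue and the rest in grey; the dotted line marks an adjusted p of 0.05. Oasl1 has the smallest adjusted p at a log2 fold change of 2.67, and Cxcl13, H2-Ab1 and H2-Aa have the largest negative log2 fold changes.

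Each gene was counted through 1 short amplicon on a panel. The stretches below belong to 3 genes described in these results. Oasl1 is on the antiviral list, Mmp9 on both the matrix protease and the neutrophil list, and Prf1 on the list of cytotoxic lymphocyte genes. All lie in coding exons of GRCm38 and are read from the GENCODE M21 transcripts between the positions of the count table, 5′ to 3′ in the sense of the gene. Oasl1 lies at chr5:114928141-114928230, Mmp9 at chr2:164951146-164951240 and Prf1 at chr10:61303348-61303439, all on the plus strand. The position columns name a human build, but 1277 of 1278 amplicons lay inside the named mouse gene on GRCm38.
Oasl1 amplicon: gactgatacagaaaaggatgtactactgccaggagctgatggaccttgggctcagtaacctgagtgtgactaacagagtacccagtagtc
Mmp9 amplicon: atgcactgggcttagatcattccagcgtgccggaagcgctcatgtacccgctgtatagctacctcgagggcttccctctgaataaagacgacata
Prf1 amplicon: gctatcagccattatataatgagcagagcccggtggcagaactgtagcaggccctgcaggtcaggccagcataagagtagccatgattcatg

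Antiviral genes induced by type I interferon rose together. Of 15 tested members 12 rose, against 23.4% of all genes, and the other 3 did not pass. Their median log2 fold change was 1.17, beside 0.01 over all genes. Oasl1, an oligoadenylate synthetase-like antiviral protein, measured 979.7, 1151 and 1494 CPM in BA+RT tumours, against 138, 195 and 231 CPM in control tumours. The groups did not overlap. Its log2 fold change was 2.67 ± 0.11 (SE, adjusted p = 8.46e-21), a 6.38-fold difference. Oas2, which makes the 2-5A messenger that activates RNase L, measured 359, 499 and 691 CPM in BA+RT tumours, against 69.2, 115 and 177 CPM in control tumours, also with no overlap, a log2 fold change of 2.08 ± 0.18 (SE, adjusted p = 1.72e-11). Irf7, the transcription factor that amplifies interferon production, measured 1036, 1679 and 2872 CPM in BA+RT tumours, against 294, 433 and 826 CPM in control tumours and rose by 1.85 ± 0.19 on the log2 scale (adjusted p = 2.11e-09). Ddx58, the RNA sensor RIG-I, rose by 0.93 ± 0.09 (adjusted p = 5.7e-10) and again every BA+RT tumour lay above every control tumour. Ifi27, a member of the same list, did not pass the test, at 0.10 ± 0.09 with a 95% interval of -0.08 to 0.28. With reference-gene scaling Ifi27 was called higher, at 0.27 (adjusted p = 0.00776).

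Against RT alone Oasl1, Irf7 and Ddx58 did not differ detectably. Oasl1 measured 979.7, 1151 and 1494 CPM in BA+RT and 1153, 1192 and 1476 CPM in RT tumours, a difference of -0.09 with a 95% interval of -0.29 to 0.12. For Irf7 the interval against RT was -0.37 to 0.39, and for Ddx58 it was -0.19 to 0.19. Ifi27 differed from RT by -0.21 ± 0.09 and did not pass (adjusted p = 0.134), but was called lower with reference-gene scaling, at -0.25 (adjusted p = 0.0472). Against BA alone Oasl1 was higher by 2.68 ± 0.11 (SE, adjusted p = 8.48e-21), with BA tumours at 129, 191 and 229 CPM. The median over the 15 members was -0.001 against RT, beside 0.01 over all genes, and 0.98 against BA, beside 0.02 over all genes.

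Promoters of these genes were read for GAAANNGAAA, the core of the interferon-stimulated response element, on both strands. The windows hold 250 bases before and 50 after the start site, from RefSeq on GRCm38.p6. Of the 15 tested members 10 had an entry, and 7 of those held the motif, against 3.44% of 32851 promoters in the table. Ddx58, Ifit3 and Oas3 are shown as members with the motif, in capitals on either strand, and Oasl1 as the member with the largest change and no match in its window. Ifit3, an interferon-induced antiviral protein, and Oas3 were chosen after their values were seen. Ifit3 measured 612, 989 and 1564 CPM in BA+RT tumours, against 142, 218 and 471 CPM in control tumours, and Oas3 measured 187, 313 and 566 CPM in BA+RT tumours, against 69.0, 85.7 and 222 CPM in control tumours. They differed by 1.95 ± 0.22 (SE, adjusted p = 7.21e-09) and 1.64 ± 0.23 (SE, adjusted p = 5.94e-07). A match describes letters only and was not tested as a binding site. The windows are Ddx58 at chr4:40239776-40240075, minus strand, Ifit3 at chr19:34583279-34583578, plus strand, Oas3 at chr5:120777610-120777909, minus strand, and Oasl1 at chr5:114922990-114923289, plus strand.
Ddx58 promoter: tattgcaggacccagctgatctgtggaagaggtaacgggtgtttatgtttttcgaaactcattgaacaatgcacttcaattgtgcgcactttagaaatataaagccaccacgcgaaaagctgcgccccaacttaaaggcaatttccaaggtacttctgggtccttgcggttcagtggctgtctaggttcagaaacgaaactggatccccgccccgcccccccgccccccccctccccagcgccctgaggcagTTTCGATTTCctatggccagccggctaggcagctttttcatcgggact
Ifit3 promoter: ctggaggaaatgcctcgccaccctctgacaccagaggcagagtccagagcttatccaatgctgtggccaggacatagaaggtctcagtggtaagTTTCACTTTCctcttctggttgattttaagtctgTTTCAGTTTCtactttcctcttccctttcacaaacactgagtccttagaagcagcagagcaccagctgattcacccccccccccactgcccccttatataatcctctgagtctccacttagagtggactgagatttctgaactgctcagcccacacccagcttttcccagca
Oas3 promoter: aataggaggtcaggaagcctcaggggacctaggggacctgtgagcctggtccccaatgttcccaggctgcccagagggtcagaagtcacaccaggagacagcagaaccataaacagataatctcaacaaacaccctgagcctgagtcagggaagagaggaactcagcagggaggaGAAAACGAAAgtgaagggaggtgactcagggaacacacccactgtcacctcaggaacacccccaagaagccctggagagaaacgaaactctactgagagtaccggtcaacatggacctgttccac
Oasl1 promoter: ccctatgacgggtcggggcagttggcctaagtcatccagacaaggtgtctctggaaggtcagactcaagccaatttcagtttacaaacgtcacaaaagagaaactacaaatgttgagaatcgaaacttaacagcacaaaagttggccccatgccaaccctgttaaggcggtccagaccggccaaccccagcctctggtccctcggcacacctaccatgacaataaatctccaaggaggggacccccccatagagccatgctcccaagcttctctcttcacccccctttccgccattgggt

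Among 21 tested genes of nucleic acid sensing and interferon signalling 6 rose and 6 fell, beside 23.4% and 24.2% of all genes, and with reference-gene scaling 10 rose and 1 fell. Tlr7, an endosomal sensor of RNA, rose by 0.65 ± 0.12 (SE, adjusted p = 2.13e-05). Irf3, the factor activated behind STING, measured 141, 156 and 168 CPM in BA+RT tumours, against 182, 236 and 334 CPM in control tumours, with no overlap, and fell by 0.65 ± 0.09 on the log2 scale (SE, adjusted p = 4.58e-07). Tmem173, which encodes STING, differed by -0.28 ± 0.06 (SE, adjusted p = 5.71e-05) with TMM scaling and by -0.12 with reference-gene scaling, where it was not called (adjusted p = 0.154). Without control mouse 8 the count that rose was 10, and without control mouse 8 and BA+RT mouse 40 together it was 6.

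Chemokines that attract monocytes and T cells were among the largest rises. Ccl2, which draws monocytes out of the blood, measured 1722, 3985 and 9272 CPM in BA+RT tumours, against 424, 597 and 915 CPM in control tumours. No tumour overlapped, and the log2 fold change of 2.72 ± 0.26 (SE, adjusted p = 3.1e-10) was the largest among called genes with a mean of at least 10 CPM. Ccl7, a second monocyte attractant, measured 1793, 4190.1 and 11778 CPM in BA+RT tumours, against 611, 770.3 and 1389 CPM in control tumours, a log2 fold change of 2.41 ± 0.30 (SE, adjusted p = 8.2e-08). BA+RT mouse 45, which also held the most muscle RNA, was highest for both, and without mice 45 and 6 they differed by 2.52 and 2.22. Ccl5, which attracts T cells and is induced by interferon, measured 586, 997 and 1062 CPM in BA+RT tumours, against 104, 149.6 and 349 CPM in control tumours and differed by 2.52 ± 0.19 (SE, adjusted p = 1.66e-12). Ccl12, a mouse monocyte attractant, rose by 1.34 ± 0.18 (adjusted p = 2.34e-07) and Ccl4 by 1.58 ± 0.24 (adjusted p = 2.18e-06). In the list of inflammatory myeloid cytokines and enzymes 6 of 13 tested members rose and 2 fell, beside 23.4% and 24.2% of all genes. Arg1, the arginine-consuming enzyme of suppressive myeloid cells, did not pass, with a 95% interval of -0.10 to 0.31. With reference-gene scaling Arg1 was called higher, at 0.28 (adjusted p = 0.0256). Of 7 tested neutrophil chemoattractants and colony-stimulating factors 5 rose, beside 23.4% of all genes, and 4 rose without mice 45 and 6. Among the 5 were Csf1, the macrophage growth factor, by 0.85 ± 0.08 (SE, adjusted p = 2.45e-10) and Cxcl1 by 0.60 ± 0.14 (SE, adjusted p = 0.000872). Ch25h, which makes the antiviral oxysterol 25-hydroxycholesterol, measured 903, 1461 and 2569.5 CPM in BA+RT tumours, against 213, 292 and 471 CPM in control tumours, without overlap, and differed by 2.26 ± 0.18 (SE, adjusted p = 5.11e-12).

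Ccl2, Ccl5 and Ch25h did not differ detectably from RT alone. The 95% interval of the difference from RT was -0.10 to 0.89 for Ccl2, -0.56 to 0.16 for Ccl5 and -0.06 to 0.64 for Ch25h. Against BA alone Ccl2 was higher by 2.56 ± 0.26 (SE, adjusted p = 8.78e-10).

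Of 12 tested monocyte and macrophage markers 3 rose and 4 fell, beside 23.4% and 24.2% of all genes, which became 5 and 2 with reference-gene scaling. Itgam (CD11b), the integrin chain of myeloid cells, measured 739, 879.8 and 983 CPM in BA+RT tumours, against 327, 443 and 584 CPM in control tumours and rose by 0.88 ± 0.10 (SE, adjusted p = 3.86e-09) with no overlap. Cd68, a lysosomal protein of macrophages, rose by 0.45 ± 0.06 (SE, adjusted p = 6.32e-07), and Adgre1 (F4/80) by 0.41 ± 0.12 (SE, adjusted p = 0.00569). Csf1r, the receptor for Csf1, measured 938, 1262 and 1572 CPM in BA+RT tumours, against 1312, 1718 and 1992 CPM in control tumours and fell by 0.47 ± 0.09 on the log2 scale (SE, adjusted p = 3.93e-05). Apoe did not pass, with a 95% interval of -0.41 to 0.08. Among 11 tested neutrophil genes 6 fell and 2 rose, beside 24.2% and 23.4% of all genes. Mmp8 and Mmp9 are on this list and also on that of the matrix proteases. Il1r2, the decoy receptor for interleukin 1, fell by 0.92 ± 0.15 on the log2 scale (SE, adjusted p = 5.05e-06).

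MHC class II genes, whose products show peptides to CD4 T cells, fell by large amounts. Of 5 tested members 4 fell and 1 rose, beside 24.2% and 23.4% of all genes, with a median log2 fold change of -1.65. H2-Ab1, which encodes a class II beta chain, measured 135, 165 and 718 CPM in BA+RT tumours, against 884, 1068 and 3354 CPM in control tumours. Every BA+RT tumour lay below every control tumour, and the log2 fold change was -2.49 ± 0.30 (SE, adjusted p = 5.47e-08). H2-Aa, the alpha chain, measured 284, 365 and 1747 CPM in BA+RT tumours, against 1663, 2346 and 6981 CPM in control tumours and differed by -2.43 ± 0.33 (SE, adjusted p = 2.86e-07). Cd74, the invariant chain that guides class II to the peptide loading compartment, measured 1312, 1789.9 and 5816 CPM in BA+RT tumours, against 3814, 5974 and 15276 CPM in control tumours and differed by -1.65 ± 0.26 (SE, adjusted p = 4.97e-06). For all 3, BA+RT mouse 40 was the highest of its group and control mouse 8 the highest of its own. Without these mice H2-Ab1 differed by -2.62, H2-Aa by -2.64 and Cd74 by -1.75. H2-DMa, a chain of the peptide exchange factor, was higher, at 53.9, 98.0 and 113 CPM in BA+RT tumours, against 27.05, 50.5 and 82.3 CPM in control tumours, a rise of 0.80 ± 0.15 (SE, adjusted p = 5.14e-05). Against RT alone H2-Ab1 did not differ detectably, with a 95% interval of -0.27 to 0.92. Against BA alone H2-Ab1 fell by 3.16 ± 0.31 on the log2 scale (SE, adjusted p = 7.02e-10), with BA tumours at 1027, 2037 and 3221 CPM.

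The H2-Aa promoter is shown because class II promoters share a conserved upstream block that ends in an inverted CCAAT box. The letters CTGATTGG, searched on both strands, were found once in the window and stand in capitals, and 4.10% of all promoters in the table held them. Of the 5 tested class II members only 2 had an entry, H2-Aa with these letters and H2-DMa without them. The window is chr17:34287774-34288073, minus strand, from RefSeq on GRCm38.p6.
H2-Aa promoter: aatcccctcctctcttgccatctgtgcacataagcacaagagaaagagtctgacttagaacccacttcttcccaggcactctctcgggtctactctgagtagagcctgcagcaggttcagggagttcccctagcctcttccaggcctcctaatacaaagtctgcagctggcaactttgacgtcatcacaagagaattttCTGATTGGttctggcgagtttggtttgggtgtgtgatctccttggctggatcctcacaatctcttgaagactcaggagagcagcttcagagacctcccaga

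Of 4 tested dendritic cell markers 3 fell and 1 rose, beside 24.2% and 23.4% of all genes, and with reference-gene scaling 1 fell and 1 rose. Cd83, a marker of mature dendritic cells, measured 40.4, 56.0 and 115 CPM in BA+RT tumours, against 58.8, 122 and 183 CPM in control tumours and fell by 1.04 ± 0.20 on the log2 scale (SE, adjusted p = 4.58e-05). Kynu, an enzyme of tryptophan breakdown, measured 17.6, 32.4 and 47.2 CPM in BA+RT tumours, against 60.6, 109 and 202 CPM in control tumours, with no overlap, a log2 fold change of -1.90 ± 0.18 (SE, adjusted p = 2.28e-10). Of 8 tested mast cell, basophil and eosinophil markers 2 fell, close to the 24.2% of all genes, and 6 did not pass. Their median was 0.18. Kit, the stem cell factor receptor carried by mast cells and progenitors, measured 18.3, 27.7 and 37.4 CPM in BA+RT tumours, against 58.7, 85.1 and 109 CPM in control tumours, again with no overlap, and differed by -1.62 ± 0.18 (SE, adjusted p = 5.85e-09). Against RT alone neither was detectably different, at -0.47 to 0.25 for Kynu and -0.62 to 0.11 for Kit (95% intervals).
Among 14 tested class I presentation genes 5 rose and 1 fell, beside 23.4% and 24.2% of all genes, and 3 rose without BA+RT mouse 40, control mouse 4 or control mouse 7. The median was 0.15. H2-K1, a classical class I heavy chain, measured 8601, 12191 and 14333 CPM in BA+RT tumours, against 7329, 8418 and 14097 CPM in control tumours and rose by 0.42 ± 0.13 (SE, adjusted p = 0.00644). Class I heavy chains resemble each other closely, so its reads may include those of a relative.

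Transcripts of the proteins that BA binds moved by small amounts or did not pass. Cd274, which encodes PD-L1, measured 157, 193 and 465 CPM in BA+RT tumours, against 110.2, 155 and 912 CPM in control tumours. Its log2 fold change was -0.05 ± 0.33, with a 95% interval of -0.73 to 0.62 (adjusted p = 0.912). The highest control value was that of mouse 8, and without it Cd274 was higher in BA+RT by 0.57 (adjusted p = 0.048). Without control mouse 8 and BA+RT mouse 40 together Cd274 was not called. Tgfb1, the main TGF-β ligand, measured 1804, 2289.5 and 2720.5 CPM in BA+RT tumours, against 2051, 2787 and 3078 CPM in control tumours and fell by 0.27 ± 0.07 on the log2 scale (SE, adjusted p = 0.00291). Tgfb2 measured 397, 648 and 1123 CPM in BA+RT tumours, against 714, 919.6 and 1719.9 CPM in control tumours and fell by 0.48 ± 0.16 on the log2 scale (SE, adjusted p = 0.0129). Tgfb3 did not pass, at 0.07 ± 0.11 with an interval of -0.16 to 0.29, but was called higher with reference-gene scaling, at 0.24 (adjusted p = 0.0327). The Tgfb1 and Tgfb3 amplicons lie in untranslated exon sequence and the Tgfb2 amplicon in coding sequence.
Among 19 tested TGF-β ligands, receptors and Smads 3 rose and 4 fell, below the 23.4% and 24.2% of all genes, with a median of 0.05. Tgfbr2, the receptor whose extracellular part is built into BA, measured 5516, 6286 and 6955 CPM in BA+RT tumours, against 4474, 4995 and 5394 CPM in control tumours, with no overlap, a rise of 0.33 ± 0.05 (SE, adjusted p = 7.1e-06). Inhba, the activin A chain, measured 1051, 1219 and 1381 CPM in BA+RT tumours, against 1433, 1811 and 2096 CPM in control tumours and fell by 0.60 ± 0.10 on the log2 scale (SE, adjusted p = 3.53e-06). Of 12 tested TGF-β target genes 3 rose and 1 fell against control, near the shares of all genes, with a median of 0.12. With reference-gene scaling 5 rose and 0 fell. Against RT 1 target was higher and 5 were lower, beside 3.66% and 7.13% of all genes. Against BA 6 were higher and 1 was lower, beside 27.1% and 26.4% of all genes.

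Of 14 tested matrix proteases 7 fell and 3 rose, beside 24.2% and 23.4% of all genes. Mmp9 and Cspg4 were also lower than after RT alone. Mmp9, a gelatinase, measured 1346, 2152 and 3247 CPM in BA+RT tumours, against 4673, 7554 and 8906 CPM in control tumours. All 9 BA+RT tumours lay below all control tumours, with a log2 fold change of -1.82 ± 0.16 (SE, adjusted p = 5.99e-11). Against RT alone Mmp9 fell by 1.61 ± 0.16 on the log2 scale (SE, adjusted p = 1.06e-08), with RT tumours at 3782, 6443 and 9833 CPM and no overlap. Against BA alone it was higher by 0.44 ± 0.16 (SE, adjusted p = 0.022), a call that ended without BA+RT mouse 37 (adjusted p = 0.0652). Mmp12, the macrophage elastase, differed from control by -0.97 ± 0.19 (SE, adjusted p = 6.25e-05). Mmp1a, an interstitial collagenase with a close relative in mice, differed by -1.87 ± 0.30 (SE, adjusted p = 3.9e-06). Of 7 tested fibroblast and pericyte markers 4 fell, beside 24.2% of all genes. Cspg4 (NG2), a pericyte proteoglycan, measured 30.1, 56.5 and 104 CPM in BA+RT tumours, against 139, 179 and 273 CPM in control tumours, with no overlap, a log2 fold change of -1.57 ± 0.20 (SE, adjusted p = 1.32e-07), and against RT alone it fell by 1.28 ± 0.20 on the log2 scale (SE, adjusted p = 4.18e-05). Fap, the fibroblast activation protein, measured 152, 198 and 252 CPM in BA+RT tumours, against 263, 396 and 573 CPM in control tumours and differed by -0.93 ± 0.12 (SE, adjusted p = 1.74e-07). Pdgfrb, the platelet-derived growth factor receptor of stromal cells, differed by -0.94 ± 0.11 (SE, adjusted p = 7.51e-09) and Acta2, smooth muscle actin, by -0.61 ± 0.19 (SE, adjusted p = 0.00723). Dcn, decorin, did not pass, with a 95% interval of -0.23 to 0.59. Of 9 tested collagens and other matrix genes 2 fell, close to the 24.2% of all genes. They were Col1a2, a collagen I chain, at -0.46 ± 0.15 (SE, adjusted p = 0.01) and Serpinh1, a collagen chaperone, at -0.37 ± 0.10 (SE, adjusted p = 0.00203).

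**Figure D3:**
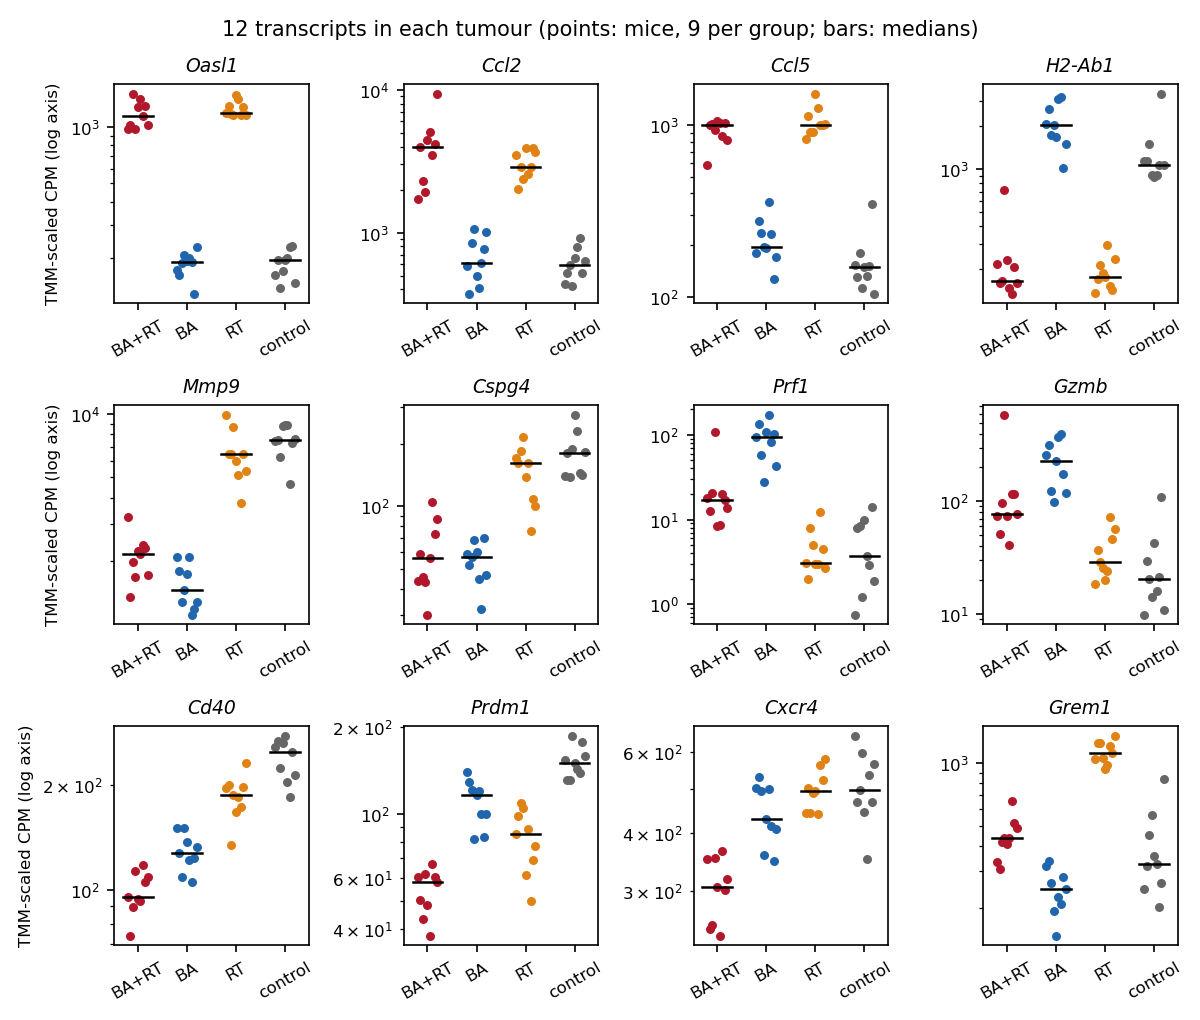
TMM-scaled CPM on a log axis of 12 transcripts in each of the 36 tumours, in the order BA+RT, BA, RT and control; points are mice and bars are group medians. Oasl1, Ccl2 and Ccl5 are high in both irradiated groups, Mmp9 and Cspg4 are low in both groups given BA, and Cd40, Prdm1 and Cxcr4 have their lowest median in BA+RT.

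Among the 17 genes of cytotoxic lymphocytes that were tested 6 rose and 1 fell, beside 23.4% and 24.2% of all genes, with a median of 0.35. Without control mouse 8 the count that rose was 10, and without control mouse 8 and BA+RT mouse 40 together it was 6. Prf1, which encodes the pore-forming perforin, measured 8.29, 17.2 and 108 CPM in BA+RT tumours, against 0.759, 3.73 and 14.04 CPM in control tumours. Its log2 fold change was 2.15 ± 0.50 (SE, adjusted p = 0.000625). Gzmb, the granule protease that triggers death of target cells, measured 40.5, 76.6 and 579 CPM in BA+RT tumours, against 9.87, 20.3 and 109 CPM in control tumours and differed by 2.16 ± 0.48 (SE, adjusted p = 0.000421). BA+RT mouse 40 held the highest value of both. Without it the differences were 1.39 for Prf1 and 1.41 for Gzmb, and without mice 40 and 8 the differences were 1.68 for Prf1 and 1.97 for Gzmb, still called (adjusted p = 0.00131 and 1.87e-05). Gzmm, a granzyme of innate lymphocytes, measured 11.7, 17.1 and 24.9 CPM in BA+RT tumours, against 3.19, 7.27 and 9.33 CPM in control tumours, with no overlap, a rise of 1.47 ± 0.22 (SE, adjusted p = 1.89e-06). Gzmc rose by 1.32 ± 0.26 (SE, adjusted p = 6.65e-05). Ctsw, a cathepsin of cytotoxic cells, fell by 0.80 ± 0.14 on the log2 scale (SE, adjusted p = 1.9e-05).

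Prf1 lay between the single treatments. It measured 8.29, 17.2 and 108 CPM in BA+RT tumours, 27.9, 93.5 and 169 CPM in BA tumours, 2.01, 3.10 and 12.2 CPM in RT tumours and 0.759, 3.73 and 14.04 CPM in control tumours. It differed from RT tumours by 2.38 ± 0.49 (SE, adjusted p = 0.00185) and from BA tumours by -1.84 ± 0.44 (SE, adjusted p = 0.000723). Without BA+RT mouse 40 these differences were 1.61 and -2.60, both still called (adjusted p = 0.00905 and 8.81e-07). Gzmb was higher than in RT tumours by 1.89 ± 0.47 (SE, adjusted p = 0.00775), and without BA+RT mouse 40 by 1.14 (adjusted p = 0.0505). Against BA it did not pass over all mice, at -0.77 ± 0.45, and differed by -1.52 without that mouse (adjusted p = 0.00121). Gzmm did not differ detectably from RT, with an interval of -0.50 to 0.32.

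Of 17 tested T cell markers 4 fell, close to the 24.2% of all genes, and 13 did not pass. The median was -0.51. Cd4, the coreceptor of helper T cells, was read at only 0.579, 2.22 and 5.46 CPM in BA+RT tumours, against 2.35, 7.46 and 18.8 CPM in control tumours, and differed by -1.33 ± 0.46 (SE, adjusted p = 0.0162). That call ended without control mouse 3 (adjusted p = 0.0599). Cd2, an adhesion receptor of T and NK cells, fell by 1.17 ± 0.38 on the log2 scale (SE, adjusted p = 0.0111). Without control mouse 3 only 1 marker fell, and without BA+RT mouse 40, 7 fell. Cd8a, the coreceptor of cytotoxic T cells, did not pass at 0, 2.66 and 13.4 CPM and 0.616, 2.35 and 15.9 CPM in BA+RT and control tumours, with a 95% interval of -1.64 to 0.92, so a moderate change was not detectable at this depth.
Of 12 tested regulatory T cell genes 1 rose and 4 fell, beside 23.4% and 24.2% of all genes, and 4 went each way with reference-gene scaling. Il2ra, the high-affinity interleukin 2 receptor chain, measured 31.3, 47.1 and 109 CPM in BA+RT tumours, against 12.9, 18.2 and 45.3 CPM in control tumours and rose by 1.16 ± 0.25 (SE, adjusted p = 0.000279). Tnfrsf18 (GITR), a costimulatory receptor of regulatory T cells, measured 12.4, 18.1 and 26.6 CPM in BA+RT tumours, against 22.9, 30.8 and 45.3 CPM in control tumours and fell by 0.78 ± 0.19 on the log2 scale (SE, adjusted p = 0.00108). Il10 fell by 1.14 ± 0.28 on the log2 scale (SE, adjusted p = 0.00123). Foxp3, the defining factor of regulatory T cells, did not pass against control, at -0.42 ± 0.26 (adjusted p = 0.181), and was chosen after its values were seen. It measured 2.90, 4.15 and 8.94 CPM in BA+RT tumours, against 14.1, 16.3 and 30.5 CPM in BA tumours, where the groups did not overlap, and differed from BA by -2.02 ± 0.24 (SE, adjusted p = 2.7e-08). Against RT Foxp3 did not pass, at 0.21 (adjusted p = 0.672). Over all 17 T cell markers 15 were called lower than in BA tumours, beside 26.4% of all genes, with a median of -1.61. BA alone was higher than control in 9 of these 17 and lower in 0, beside 12.5% and 14.5% of all genes, with a median of 1.115. Between BA+RT and RT none of the 17 was called.

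Of 29 tested checkpoint and costimulation genes 6 rose and 8 fell, beside 23.4% and 24.2% of all genes. Tnfsf4 (OX40 ligand), which costimulates T cells, was low but did not overlap, at 6.92, 13.9 and 21.1 CPM in BA+RT tumours, against 0.933, 2.35 and 5.31 CPM in control tumours, and rose by 2.47 ± 0.26 (SE, adjusted p = 1.93e-09). Tigit, an inhibitory receptor, measured 223, 321 and 391 CPM in BA+RT tumours, against 87.5, 155 and 217 CPM in control tumours, also with no overlap, and rose by 1.09 ± 0.17 (SE, adjusted p = 1.89e-06). Ido1, a tryptophan-consuming enzyme named after its values were seen, did not pass over all mice, at 0.87 ± 0.54, and was higher by 1.92 without control mouse 8 (adjusted p = 0.0024). Of 14 tested lymphocyte-attracting chemokines and receptors 7 fell and 2 rose, beside 24.2% and 23.4% of all genes. Cxcr3, the receptor for Cxcl9 and Cxcl10, measured 48.2, 70.3 and 117 CPM in BA+RT tumours, against 163, 211 and 234 CPM in control tumours, with no overlap, and fell by 1.39 ± 0.19 on the log2 scale (SE, adjusted p = 3.76e-07). Cxcl13, the B cell attractant, varied widely, at 4.99, 12.4 and 69.2 CPM in BA+RT tumours, against 15.2, 114 and 535 CPM in control tumours, and fell by 2.51 ± 0.68 on the log2 scale (SE, adjusted p = 0.0029). Without control mouse 3 the difference was -1.74 (adjusted p = 0.0212).

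**Figure D4:**
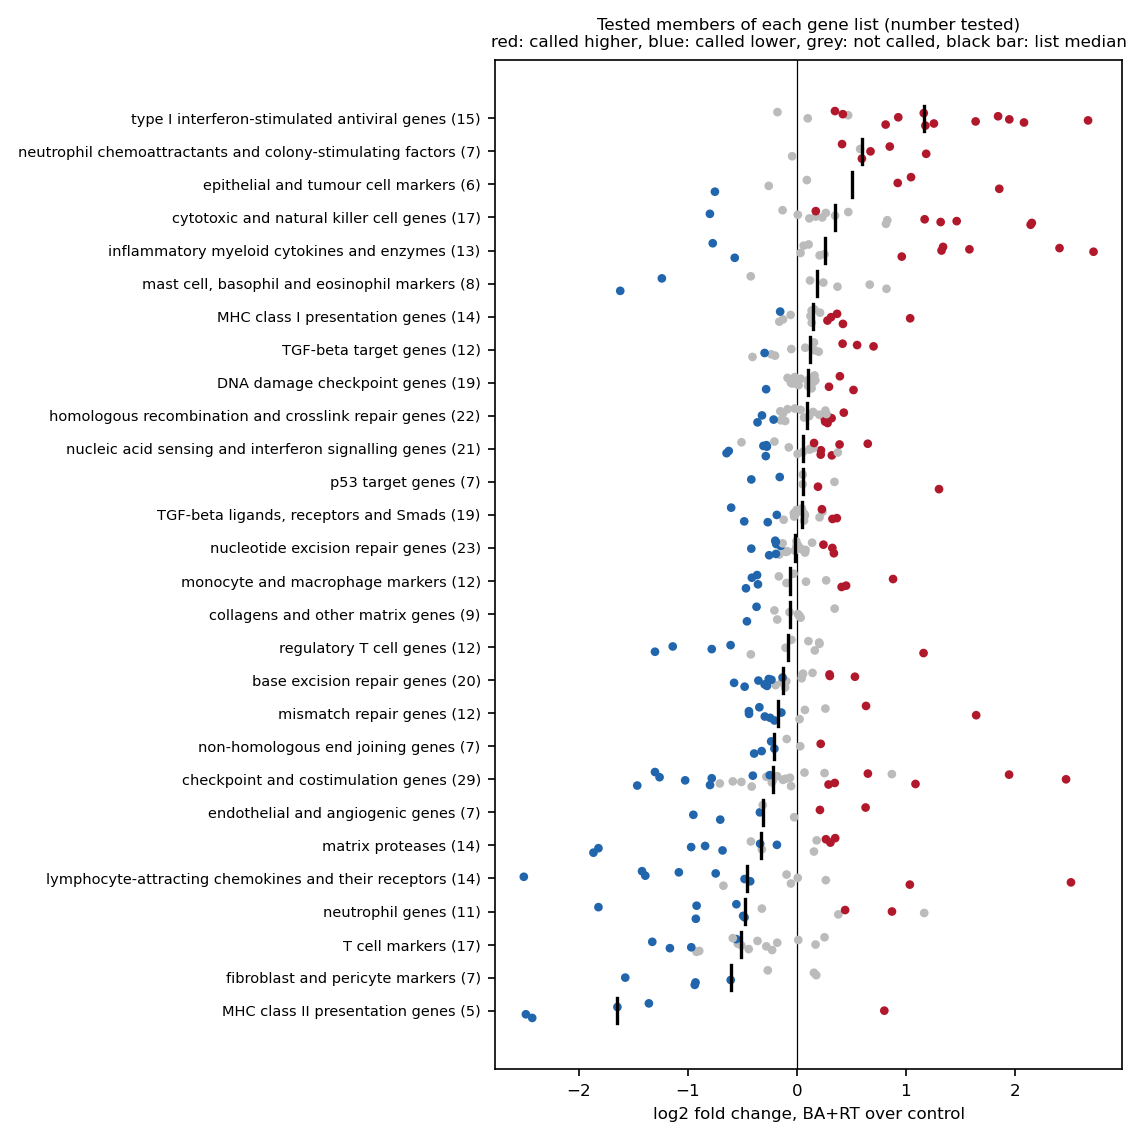
Log2 fold change of BA+RT over control on the x axis for every tested member of each gene list with at least 5 tested members, red where called higher, blue where called lower and grey otherwise, with the list median as a black bar. The antiviral list has its median at 1.17 and the class II list at -1.65, while the 5 DNA repair lists have medians from -0.21 to 0.09.

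The combination lay below control and below both single treatments in 25 genes and above all 3 groups in 9. The 2 direct comparisons share the BA+RT tumours. Cd40, the costimulatory receptor of antigen-presenting cells, measured 74.1, 95.8 and 118 CPM in BA+RT tumours, 105, 128 and 151 CPM in BA tumours, 134, 187 and 230.3 CPM in RT tumours and 185, 248 and 275 CPM in control tumours. BA+RT did not overlap control or RT, and the differences were -1.26 ± 0.10 (SE, adjusted p = 1.66e-12) from control, -0.91 ± 0.10 (SE, adjusted p = 1.88e-08) from RT and -0.38 ± 0.10 (SE, adjusted p = 0.0013) from BA. With reference-gene scaling the last was -0.18 and not called (adjusted p = 0.164). Prdm1 (Blimp-1), a factor of terminal lymphocyte and macrophage differentiation, measured 37.8, 57.9 and 67.1 CPM in BA+RT tumours, 81.8, 116 and 139 CPM in BA tumours, 49.7, 84.8 and 109 CPM in RT tumours and 130.3, 149.6 and 185 CPM in control tumours. It differed by -1.49 ± 0.13 (SE, adjusted p = 5.99e-11) from control, -0.60 ± 0.13 (SE, adjusted p = 0.00307) from RT and -1.02 ± 0.13 (SE, adjusted p = 1.35e-07) from BA. With counts thinned to the smallest library the difference from RT was not called (adjusted p = 0.0628).
Cxcr4, the receptor for the stromal chemokine Cxcl12, measured 239.8, 306 and 366 CPM in BA+RT tumours, 347, 429.8 and 531 CPM in BA tumours, 440.3, 495 and 579 CPM in RT tumours and 352, 497 and 649.6 CPM in control tumours. Its differences were -0.74 ± 0.10 (SE, adjusted p = 2.41e-07) from control, -0.71 ± 0.10 (SE, adjusted p = 5.61e-06) from RT and -0.54 ± 0.10 (SE, adjusted p = 4.5e-05) from BA. Itga2, a collagen-binding integrin chain, differed by -0.87, -0.36 and -0.40 in the same order. Cd34 and Cd93, both found on endothelial cells, differed from control by -0.95 and -0.78, from RT by -0.45 and -0.52, and from BA by -0.54 and -0.51. Fcgr3, an activating Fc receptor, differed by -0.59, -0.38 and -0.69. Chst7, a sulfotransferase of matrix sugars, differed by -0.99, -0.66 and -0.79. Leprotl1 and Nt5c, a nucleotidase, differed from control by -0.32 and -0.24, and with reference-gene scaling neither difference was called (adjusted p = 0.105 and 0.35).

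Cat, which encodes catalase, measured 666, 713 and 1031 CPM in BA+RT tumours, against 494, 601 and 633 CPM in control tumours, with no overlap, and rose by 0.36 ± 0.08 (SE, adjusted p = 0.000162) over control, 0.32 ± 0.07 over RT and 0.46 ± 0.08 over BA. Psmb1, a proteasome subunit, Tmbim6, Fzr1, an activator of the anaphase-promoting complex, Ptpn11 (SHP2) and Tle3 rose by 0.15 to 0.35 over control. Of these, Psmb1, Tmbim6, Fzr1 and Cat lost the call against RT with reference-gene scaling. Ptpn11 and Tle3, at adjusted p of 0.0471 and 0.0472 against RT, lost it with that scaling and under several other alternatives. The remaining 3, Pcx, Mapre3 and Lmo7, were highest in mice 45 and 6. They too lost the call against RT with reference-gene scaling (adjusted p = 0.0623, 0.0546 and 0.133). None of the 9 genes above all 3 groups thus kept that call under this scaling. Pcx, pyruvate carboxylase, at 17.6, 68.4 and 271 CPM in BA+RT tumours, against 19.05, 31.9 and 124 CPM in control tumours, differed by 1.19 ± 0.39 (SE, adjusted p = 0.0118). Without mouse 45 it was not called (adjusted p = 0.0691), and without mice 45 and 6 it differed by 1.19 (adjusted p = 0.00311). Ldb3, a protein of the muscle Z-disc, was among the 10 largest rises, at 52.7, 517 and 2351 CPM in BA+RT tumours, against 17.2, 42.1 and 1089 CPM in control tumours, a log2 fold change of 2.13 ± 0.75 (SE, adjusted p = 0.0188). Without mouse 45 it was not called (adjusted p = 0.071), without control mouse 6 it was higher by 4.01, and without both mice by 3.49 (adjusted p = 2.11e-05). Mb did not pass over all mice, at 1.05 ± 0.55 (adjusted p = 0.11), and was higher by 1.75 without both (adjusted p = 0.00127). Without both Myod1 was higher by 1.64 (adjusted p = 0.00257). Over all mice Myod1 was higher by 1.58 ± 0.51 (SE, adjusted p = 0.0108), without BA+RT mouse 45 alone by 1.07 (adjusted p = 0.0624) and without control mouse 6 alone by 2.17. The part of muscle RNA in the rises of Pcx, Mapre3 and Lmo7 was not tested.

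In another 27 genes the combination lay between the single treatments, with 18 below RT and above BA and 9 above RT and below BA, and 15 of the 27 were called against control. The genes named here were chosen after their values were seen. Grem1, an antagonist of bone morphogenetic proteins, measured 308, 434 and 654 CPM in BA+RT tumours, 147, 248 and 337 CPM in BA tumours, 939, 1121 and 1347 CPM in RT tumours and 202, 328 and 843 CPM in control tumours. It differed from RT by -1.35 ± 0.18 (SE, adjusted p = 4.7e-06) and from BA by 0.83 ± 0.20 (SE, adjusted p = 0.000639), while its difference from control was 0.16 ± 0.19 with a 95% interval of -0.23 to 0.54. Timp1, an inhibitor of metalloproteinases, showed the same order, at 0.01 ± 0.14 from control, -0.59 ± 0.14 (SE, adjusted p = 0.00646) from RT and 0.93 ± 0.14 (SE, adjusted p = 2.06e-06) from BA. Thbs2, a matricellular protein, differed from RT by -0.61 ± 0.12 (SE, adjusted p = 0.0016) and from BA by 0.45 ± 0.13 (SE, adjusted p = 0.0033). Il13ra2, the decoy receptor for interleukin 13, differed from RT by -1.12 ± 0.26 (SE, adjusted p = 0.00465) and from BA by 1.83 ± 0.31 (SE, adjusted p = 9.98e-06). Mmp9, Tgfb2 and Cd68 also lay below RT and above BA, although Tgfb2 lost its call against RT (adjusted p = 0.0354) under several alternatives and its call against BA on the other panel. The 9 genes on the other side include Prf1, Gzma, Nkg7 and Ctsg, which are granule genes of cytotoxic lymphocytes or, for Ctsg, of myeloid cells. Ctsg measured 0, 1.74 and 28.3 CPM in BA+RT tumours, 24.8, 39.6 and 93.7 CPM in BA tumours, 0, 1.19 and 2.71 CPM in RT tumours and 0, 1.90 and 6.30 CPM in control tumours. Ctsg differed from RT by 2.04 ± 0.65 (SE, adjusted p = 0.0358). Without BA+RT mouse 40 Ctsg, Nkg7 and Gzma were not called against RT (adjusted p = 0.345, 0.113 and 0.117), and Ctsg also lost that call under several other alternatives.

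**Figure D5:**
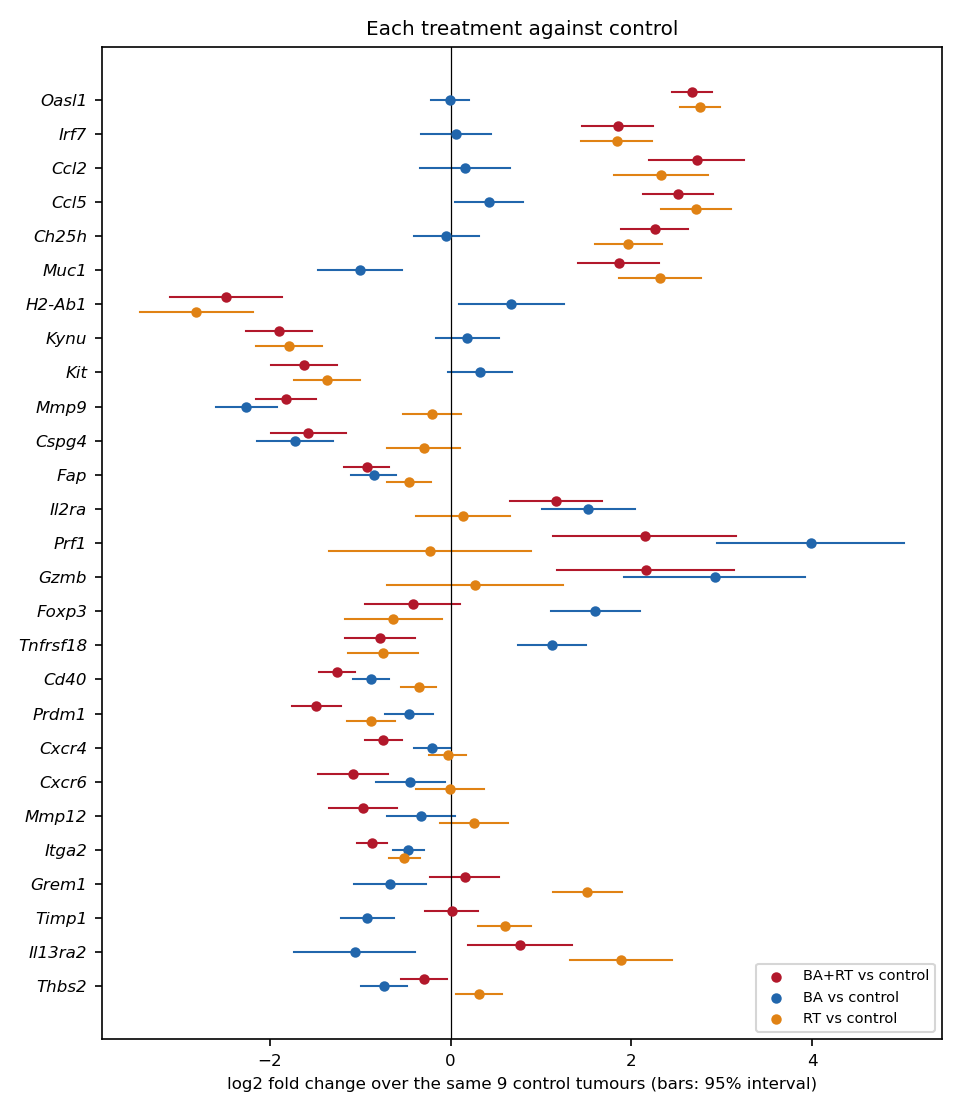
Log2 fold change over the same 9 control tumours on the x axis, with 95% intervals, for 27 genes after BA+RT, BA and RT, drawn side by side. The antiviral genes and chemokines have BA+RT near RT, Mmp9, Cspg4 and Il2ra have it near BA, Cd40 to Itga2 have it lowest of the 3, and Grem1 to Thbs2 have it between.

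Against control 105 genes were called after BA+RT and after neither RT nor BA, 66 higher and 39 lower, but only 18 of the 105 were also called against both single treatments in the same direction. The 5 with the smallest p were Cxcr4, Fcgr3, Leprotl1, Chst7 and Cxcr6. Cxcr6, the receptor for Cxcl16 on tissue-resident lymphocytes, measured 7.46, 13.8 and 20.6 CPM in BA+RT tumours, 14.1, 21.2 and 39.9 CPM in BA tumours, 24.3, 29.1 and 39.5 CPM in RT tumours and 24.7, 28.1 and 42.9 CPM in control tumours. BA+RT overlapped neither control nor RT, and the differences were -1.08 ± 0.19 (SE, adjusted p = 1.85e-05) from control, -1.07 ± 0.19 (SE, adjusted p = 0.00018) from RT and -0.64 ± 0.19 (SE, adjusted p = 0.00576) from BA. With reference-gene scaling the last was -0.44 and not called (adjusted p = 0.0605).

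Cdkn1a (p21), the cell cycle inhibitor induced by p53, measured 1673, 2497 and 4259.8 CPM in BA+RT tumours, against 806, 937 and 2760.4 CPM in control tumours and rose by 1.30 ± 0.19 (SE, adjusted p = 9.73e-07). Mice 45 and 6 were the highest of their groups, and without them it rose by 1.47. Trp53 measured 2267, 2484 and 2992 CPM in BA+RT tumours, against 1719.9, 1864 and 2242 CPM in control tumours, with no overlap, and rose by 0.40 ± 0.06 (SE, adjusted p = 3.67e-07). Atm, the kinase that signals double-strand breaks, rose by 0.52 ± 0.09 (SE, adjusted p = 1.01e-05). Neither Cdkn1a nor Trp53 differed detectably from RT, with intervals of -0.46 to 0.28 and -0.14 to 0.08. Of 7 tested p53 targets 2 rose and 2 fell, and of 19 checkpoint genes 3 rose and 1 fell, beside 23.4% and 24.2% of all genes. The p53 counts became 1 in either direction under the removal of several single mice, and 6 checkpoint genes rose without control mouse 3 or control mouse 6.
Of 7 end-joining genes 4 fell and 1 rose, of 20 base excision genes 8 fell and 3 rose, of 23 nucleotide excision genes 7 fell and 3 rose (4 and 5 with reference-gene scaling), and of 12 mismatch repair genes 7 fell and 2 rose, beside 24.2% and 23.4% of all genes. Of 22 homologous recombination and crosslink genes 6 rose and 3 fell, and 3 rose without control mouse 2 or control mouse 4. Xrcc5 (Ku80) measured 1472, 1739 and 1899 CPM in BA+RT tumours, against 1890.0, 2082 and 2416 CPM in control tumours and fell by 0.32 ± 0.06 on the log2 scale (SE, adjusted p = 5.13e-05). Xrcc4, a partner of DNA ligase IV, differed by -0.39 ± 0.08 (SE, adjusted p = 0.000118), Ung, the uracil glycosylase, by -0.48 ± 0.09 (SE, adjusted p = 5.14e-05), and Pcna, the replication clamp, by -0.34 ± 0.06 (SE, adjusted p = 4.45e-05). Brca2 measured 654, 724 and 848 CPM in BA+RT tumours, against 841, 928 and 1117 CPM in control tumours and fell by 0.36 ± 0.06 on the log2 scale (SE, adjusted p = 5.96e-06). Trex1, the exonuclease that clears cytosolic DNA, measured 413, 504 and 605 CPM in BA+RT tumours, against 291, 322 and 409 CPM in control tumours, with no overlap, and rose by 0.64 ± 0.08 (SE, adjusted p = 1.74e-07). Msh4, known as a meiotic mismatch repair relative, was low at 13.4, 31.6 and 46.9 CPM in BA+RT tumours, against 1.84, 8.99 and 18.2 CPM in control tumours and rose by 1.65 ± 0.30 (SE, adjusted p = 3.45e-05).

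Among 6 tested epithelial and tumour cell markers 3 rose and 1 fell, beside 23.4% and 24.2% of all genes. Epcam, the adhesion protein of epithelial cells, was high in every tumour at 4172, 6684 and 8574 CPM in BA+RT tumours, against 9359, 11224 and 14437 CPM in control tumours, with no overlap, and fell by 0.75 ± 0.11 on the log2 scale (SE, adjusted p = 8.52e-07). Muc1, a membrane mucin, measured 61.7, 159 and 231 CPM in BA+RT tumours, against 24.3, 46.7 and 58.1 CPM in control tumours, without overlap, and rose by 1.86 ± 0.22 (SE, adjusted p = 2.08e-08). Msln, mesothelin, rose by 0.93 ± 0.13 (SE, adjusted p = 7.33e-07). Of 7 endothelial and angiogenic genes 3 fell and 2 rose, beside 24.2% and 23.4% of all genes. Without BA+RT mouse 42 or BA+RT mouse 45, 1 rise was left. Kdr, the main receptor for VEGF, differed by -0.70 ± 0.12 (SE, adjusted p = 1.25e-05) and Vegfc, the lymphatic growth factor, by 0.63 ± 0.12 (SE, adjusted p = 7.41e-05).

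Tnfsf10, the death ligand TRAIL, did not pass over all mice, at -0.13 ± 0.32 (adjusted p = 0.761). It was highest in control mouse 8, and without that mouse it was higher by 0.55 (adjusted p = 0.0316). Without control mouse 8 and BA+RT mouse 40 together it was not called.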

How the data were processed

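RNA from 36 tumours, 9 per group, was read with 2 targeted amplicon panels of 992 and 286 gene rows. The authors deposited a table of counts per amplicon and, per the file headers, a table of regularized log2 values. DESeq2, GRCm38 and GRCh38 are named in the submitters' processing notes. The aligner, the counter and whether reads or molecular barcodes were counted are not stated in these sources. Depth limits genes of low CPM. Genomic DNA control rows, 10 in all, held 2.32e-05% of counts and were left out. Of 54 genes on both panels the panel with the larger total was used.

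The counts of each panel were fitted with edgeR 4.0.16 (R 4.3.3): TMM scaling, filterByExpr by group, and the robust two-sided quasi-likelihood F test over all 4 groups, which then share 1 estimate of spread. Adjusted p-values are Benjamini-Hochberg values over the 1038 tested genes of both panels. SE was taken from the log2 fold change and F, and intervals are 95% intervals. Groups came from the treatment labels, and on each panel no pair of libraries within the BA+RT or the control group was closer than sampling noise. The members, the 33 gene lists and the tests were chosen with earlier results of these data known. Named genes were the 10 largest called changes each way with a mean of at least 10 CPM, up to 4 called members and 1 other member of each list, the BA targets, up to 10 genes each way that differed from all 3 groups, and the 5 with the smallest p among those called after BA+RT alone. Ifit3, Oas3, Foxp3, Cd8a, Ido1, Tnfsf10 and the genes between the single treatments were added after their values were seen where that rule did not name them. Alternatives were 2 other scalings, no filter, DESeq2 1.42.0, limma 3.58.1 on the deposited log2 values, the other panel, thinned counts, 2 groups only, and left-out mice. Amplicons were placed on GENCODE M21.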

Additional observations from a re-analysis of the deposited data

Results flagged for a closer look

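Single tumours lay far from the other 8 of their group in 31 of 114 groups of values examined, which cover 57 genes in BA+RT and control tumours. In each case the gap to the nearest tumour divided by the range of the group exceeded Dixon's 95% critical value for 9 samples. For normally distributed values chance flags about 1 group in 20. The ratios were taken on CPM without a log, and all 31 flags were highest values, so the chance rate here may be larger. The genes are also not independent of each other.

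Of these, 10 came from BA+RT mouse 40, each the highest of its group: H2-Ab1 at 718 CPM, H2-Aa at 1747 CPM, Cd74 at 5816 CPM, Cd83 at 115 CPM, Cd274 at 465 CPM, Prf1 at 108 CPM, Gzmb at 579 CPM, Cd8a at 13.4 CPM, Il2ra at 109 CPM and Ctsg at 28.3 CPM. Control mouse 8 was the highest control for Irf7 at 826 CPM, Oas3 at 222 CPM, Ccl5 at 349 CPM, H2-Ab1 at 3354 CPM, H2-Aa at 6981 CPM, Cd74 at 15276 CPM, Kynu at 202 CPM, H2-K1 at 14097 CPM, Cd274 at 912 CPM and Gzmb at 109 CPM.

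BA+RT mouse 45 was the highest BA+RT tumour for Ccl2 at 9272 CPM, Ccl7 at 11778 CPM, Cxcl13 at 69.2 CPM, Cat at 1031 CPM, Pcx at 271 CPM and Ldb3 at 2351 CPM. Control mouse 6 was the highest control for Pcx at 124 CPM, Ldb3 at 1089 CPM and Cdkn1a at 2760.4 CPM. The remaining flags were Trp53 in BA+RT mouse 42 at 2992 CPM and Cxcl13 in control mouse 3 at 535 CPM.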

How the results depend on the processing

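The number of genes called against control lay between 461 and 540 when each mouse was left out (217 to 269 higher and 242 to 278 lower). Against RT it lay between 75 and 152, with 21 to 56 higher and 54 to 96 lower, and the 21 came without RT mouse 23. Against BA it lay between 511 and 568 (250 to 291 higher and 257 to 294 lower). Scaling by the reference genes gave 387 higher and 157 lower against control, 19 higher against RT, and 472 higher and 147 lower against BA, since it moved the median of all genes to 0.14 against control and 0.20 against BA. DESeq2 called 63 genes higher than RT. Without BA+RT mouse 45 and control mouse 6, a choice made after seeing the data, 171 genes were called against RT, 66 of them higher. The cause was not tested.

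Of 112 genes given values, 96 were called against control, 87 of them under every alternative. The calls of Cd4, Il13ra2, Ldb3, Leprotl1, Myod1, Nt5c, Pcx, Thbs2 and Tmem173 were lost under at least 1. With single mice left out, Cd274 ran from -0.25 without BA+RT mouse 40 to 0.57 without control mouse 8, where it changed sign, and Tnfsf10 likewise from -0.26 to 0.55. Against RT 23 of 41 calls and against BA 69 of 92 held under every alternative. Against RT the calls of Ptpn11, Tle3, Lmo7, Pcx, Tgfb2, Inhba and Ctsg were among those lost. No paired analysis was possible because the groups share no mouse numbers. Transcripts of a few CPM, such as Cd8a and Cd4, are limited by depth.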
